A study of Mus musculus with 18 samples.

Results

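In thymocytes lacking Satb1, 946 genomic regions carried cohesin in both knockout (KO) peak lists and in neither wild-type (WT) list, together with a CTCF peak that had no counterpart in the WT CTCF list. They were chosen among 34329 regions made by merging the peaks of the 4 SMC1A lists (SMC1A is a cohesin subunit) on chromosomes 1 to 19 wherever they shared at least 1 bp. A member had to overlap a peak of both KO SMC1A lists, of at least 1 of the 2 KO CTCF lists, and of no WT SMC1A or WT CTCF list. Presence and absence in these 7 lists therefore chose the members. Their SMC1A and CTCF calls are given as a description without a test.

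The study profiled sorted double-positive (DP) thymocytes by CUT&RUN, in which an antibody directs a nuclease to cut out the DNA next to its target in isolated nuclei. Of its 18 libraries, 7 are used here: SMC1A in WT (replicates 1 and 2), SMC1A in Satb1 KO (replicates 1 and 2), and CTCF in WT (replicate 1) and in Satb1 KO (replicates 1 and 2). Every mouse group, the WT controls included, received tamoxifen, which induced the deletion of Satb1 in the KO. Replicate 1 is batch 1 and replicate 2 is batch 2 in the labels, so the only WT CTCF list analysed shares its batch with KO CTCF replicate 1. The labels do not say whether replicates came from separate mice, and neither the labels nor the design text give mouse age or the Cre driver. Peak lists hold no RNA or surface marker by which the labelled cell type could be checked.

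Cohesin is a ring-shaped complex that extrudes chromatin loops, and it is often stopped and held where CTCF is bound to its sequence motif. Such anchors set which enhancers and promoters meet. SATB1 is a chromatin organizer abundant in DP thymocytes, the stage at which T cell receptor alpha chains are rearranged and selection begins.

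Most members lay away from gene starts, and 61 of 946 (6.45%) overlapped a promoter window of the RefSeq table used (GRCm38.p6, the assembly behind mm10). A window runs from 250 bases before to 50 after a gene start, and the table holds windows for 16456 of 20661 protein-coding genes (79.6%). The promoters of 4 genes under a member are shown as examples: Il2ra and Il7r, receptor chains for interleukins 2 and 7, Lax1, an adaptor of lymphocyte signalling, and Il20ra, a receptor chain for interleukin 20. These 4 were picked by hand from the 66 genes whose windows members overlapped, so they do not stand for the rest. Each run below is the 250 bases before the start, 5′ to 3′ on the gene's strand, at chr2:11642542-11642791 (plus strand) for Il2ra, chr15:9529877-9530126 (minus) for Il7r, chr1:133690017-133690266 (minus) for Lax1 and chr10:19712337-19712586 (plus) for Il20ra. The member covered all 250 bases of each except Il7r, where it covered the 139 nearest the start. Capitals mark short motifs on either strand. AGGAAG is known to be bound by ETS factors. TGTGGT is known to be bound by RUNX factors. TGANTCA, in which N is any base, is known to be bound by AP-1. Each motif was searched on its own, so matches of different motifs could overlap.
Il2ra: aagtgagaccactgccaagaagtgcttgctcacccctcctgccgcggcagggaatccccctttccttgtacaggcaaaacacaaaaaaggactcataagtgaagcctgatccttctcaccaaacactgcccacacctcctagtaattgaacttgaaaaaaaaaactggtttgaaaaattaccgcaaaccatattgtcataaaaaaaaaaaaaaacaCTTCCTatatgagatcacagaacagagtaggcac
Il7r: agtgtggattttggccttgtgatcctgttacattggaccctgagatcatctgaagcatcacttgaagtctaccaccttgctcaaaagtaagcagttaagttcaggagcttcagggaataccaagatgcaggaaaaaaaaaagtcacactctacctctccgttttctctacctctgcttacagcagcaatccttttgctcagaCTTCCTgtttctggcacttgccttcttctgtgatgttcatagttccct
Lax1: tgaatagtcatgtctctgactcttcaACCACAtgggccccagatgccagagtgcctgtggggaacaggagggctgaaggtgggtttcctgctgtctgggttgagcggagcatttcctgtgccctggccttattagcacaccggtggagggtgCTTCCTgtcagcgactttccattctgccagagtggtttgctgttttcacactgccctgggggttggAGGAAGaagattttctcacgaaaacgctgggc
Il20ra: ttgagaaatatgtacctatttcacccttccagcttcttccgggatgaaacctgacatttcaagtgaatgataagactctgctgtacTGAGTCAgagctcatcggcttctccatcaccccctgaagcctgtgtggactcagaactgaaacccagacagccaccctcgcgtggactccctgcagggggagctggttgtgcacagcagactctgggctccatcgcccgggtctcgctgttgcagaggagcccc
The promoter of Myh9, a non-muscle myosin heavy chain, is printed next, at chr15:77842176-77842425 (minus), under a region present in all 4 SMC1A lists. It was picked among promoters that hold the CTCF letters, so it shows those letters and gives no comparison with the members. Here capitals mark the core letters of the CTCF motif, which are CCA, AG and GGC, each parted from the next by 2 free bases and searched on both strands.
Myh9: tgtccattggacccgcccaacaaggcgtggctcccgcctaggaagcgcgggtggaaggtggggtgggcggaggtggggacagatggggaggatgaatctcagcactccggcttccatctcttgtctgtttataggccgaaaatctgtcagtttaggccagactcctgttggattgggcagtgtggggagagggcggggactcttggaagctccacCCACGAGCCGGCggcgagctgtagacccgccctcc

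None of the 4 member promoters printed held the CTCF core letters on either strand. Il2ra and Il7r each held 1 copy of the ETS letters, Lax1 held 2 copies of them and 1 of the RUNX letters, and Il20ra held 1 copy of the AP-1 letters. Over the 73 windows that members overlapped, 3 (4.11%, 95% Wilson interval 1.41 to 11.4%) held the CTCF letters. Of those 3, 2 were overlapping windows of the gene Tex48 with the letters inside the member, and in the third, at Lrp10, the letters lay outside it. The whole-window share compares with 247 of 6607 windows (3.74%) at regions of all 4 SMC1A lists and 2.47% of all 31365 windows. Of the 38 windows that held a member's summit itself, 0 had the letters, which allows a share of up to 7.89%. The same reading at regions of all 4 SMC1A lists gave 183 of 4415 (4.14%). That share is under the limit, so the 0 does not set the members apart. The ETS letters stood in 41.1% of the members' windows and 35.1% of all windows, the RUNX letters in 20.5% and 16.7%, and the AP-1 letters in 9.59% and 7.85%. The members' intervals include each of these background shares. At regions of all 4 SMC1A lists the shares were 31.9%, 11.2% and 3.63%. Of these, RUNX and AP-1 lay under the members' intervals (12.9 to 31.2% and 4.72 to 18.5%). Gains with WT CTCF had 34.3%, 13.6% and 5.92%, all inside them. These differences were not tested. The letters were read only in promoter windows, and a match is no measured site.

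The members were a large share of all new cohesin. Of the 16906 regions in both KO SMC1A lists, 2187 (12.9%) were in neither WT list and are called gained, and 946 of these (43.3% of the gained, 5.6% of all regions in both KO lists) were members. The other gains were 1212 regions with a WT CTCF peak and 29 with no CTCF peak in any list. Over all 54222 CTCF peaks of KO replicate 1, the list behind 944 of the members, 46.2% had no WT peak. The members' 43.3% of the gains was thus near the share over that whole list. The opposite choice, regions of both WT lists in neither KO list, gave 594 of 14538 (4.09%), called lost. The SMC1A lists differed in length, with 27459 peaks in KO replicate 1 and 19466 in WT replicate 1. The part of length in these counts was not tested.

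CTCF was read in each list at regions chosen by SMC1A alone. Among the 2187 gained regions, 98.2% had a CTCF peak in KO replicate 1, 55.4% (95% Wilson interval 53.3 to 57.5%) in WT replicate 1 and 41.4% (39.4 to 43.5%) in KO replicate 2. The 594 lost regions had the same order, with 77.3%, 65.7% and 23.4%. At the 12088 regions shared by all 4 SMC1A lists the shares were 98.8%, 97.4% and 83.5%. The KO replicates thus stood on either side of the WT list, and gained cohesin had CTCF in all but a few regions by the list of replicate 1 only. These intervals cover counting error over regions, and with 1 WT CTCF list there is no test between genotypes.

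**Figure D1:**
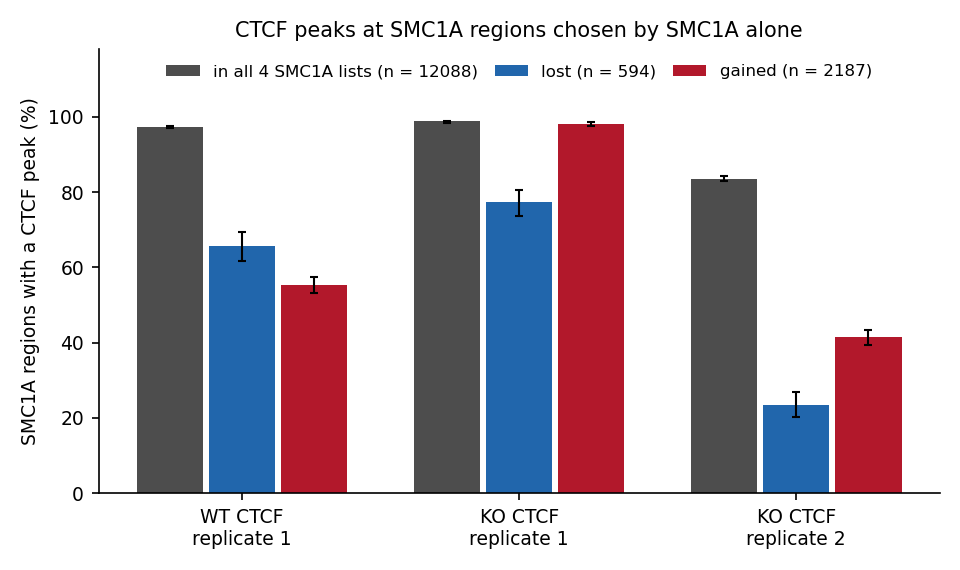
Share of regions (percent, vertical axis) with a CTCF peak in each of the 3 CTCF lists, for regions gained, lost or shared by SMC1A alone; error bars are 95% Wilson intervals over regions. At gained regions KO replicate 1 is at 98.2%, WT replicate 1 at 55.4% and KO replicate 2 at 41.4%.

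The pattern of CTCF in a KO list without WT CTCF was found at 43.3% of gained regions (the members), 18.5% of lost regions and 2.12% of the regions shared by all 4 lists. Reading KO replicate 2 alone, those shares were 9.88%, 3.03% and 0.935%. The opposite reading, WT CTCF without a peak of KO replicate 2, was found at 23.9% of gained and 45.3% of lost regions. WT CTCF without a peak in KO replicate 1 was found at 0.366% of gained and 5.72% of lost regions. By either KO list, CTCF seen only in KO was the more frequent at gained than at lost regions, and CTCF seen only in WT the more frequent at lost ones.

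Most members owed their CTCF call to 1 library. Of the 946, 730 (77.2%) overlapped a CTCF peak of KO replicate 1 only, 214 (22.6%) of both KO lists and 2 of KO replicate 2 only. Over the whole lists, 46.2% of the 54222 peaks of KO replicate 1 had no WT peak, against 17.5% of the 22351 peaks of KO replicate 2. KO replicate 1 also had the deeper background of the batch 1 pair, 1.78 times that of the WT list, where background is the level under the lowest 1% of peaks. The part of depth in the missing WT calls was not tested. With the KO replicate 1 pile-up (reads over the summit) divided by that ratio, the members' median was 19.1 reads (quartiles 14.1 and 25.9), and 931 of 944 reached the 7 reads below which only 1% of the WT list's own peaks lie. For the 216 members with a KO replicate 2 peak, whose background ratio to WT was 3.21, the scaled median was 6.23 reads and 56 reached those 7 reads. Before scaling, the median pile-up was 23 reads over the whole list of KO replicate 1 and 34 at members. The share of that whole list reaching 7 scaled reads is not given here, so the 931 do not set the members apart. The rule required these KO peaks, so their pile-ups are a description and give no verdict on depth. KO replicate 2 had the highest background of the CTCF lists and the fewest peaks.

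The 214 members with CTCF in both KO lists were the stronger ones. Their median SMC1A fold enrichment was 7.12 in KO replicate 1 and 6.01 in KO replicate 2, against 5.86 and 5.4 for members with CTCF in replicate 1 only. Their median CTCF fold in replicate 1 was 12.3 against 7.37. They were also wider, with a median of 526 against 437 bp, and their SMC1A and CTCF summits lay a median of 41.5 against 71 bp apart. The nearest summit of either KO CTCF list was taken, so regions with CTCF in both had more summits to choose from. The distances are therefore not like for like. Fold here is the authors' MACS2 value. It fitted the pile-up at the summit plus 1, divided by the local background plus 1, so it understates the ratio of reads to background where both are low. It ranks peaks only within its own list.

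The direction of the SMC1A gain was also read in the batch that did not choose it. A choice made in batch 1 alone (SMC1A in KO and not in WT, CTCF in KO replicate 1 and not in WT) gave 4026 regions and used no list of batch 2. The batch 2 SMC1A lists are of nearly equal length, 20172 KO and 20152 WT peaks. Of the 4026 regions, 1169 (29.0%, exact 95% interval 27.6 to 30.5%) had a KO peak in batch 2 and 434 (10.8%, 9.84 to 11.8%) a WT peak, with KO alone in 980 and WT alone in 245. Choosing by the batch 1 SMC1A lists with no condition on CTCF gave 11041 regions. Of these, 32.8% had a KO and 22.9% a WT peak in batch 2, with KO alone in 2265 and WT alone in 1172. The absence of WT CTCF was part of the narrower choice, so its wider gap is not a reading of SMC1A alone. The SMC1A gain kept its direction in batch 2 by either choice, while most of the 4026 regions had no peak of either genotype there.

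Gains of batch 1 that had WT CTCF were closer to balance, with 41.4% in the KO and 35.1% in the WT list of batch 2 (5784 regions, KO alone in 1246 and WT alone in 880). The mirror choice in batch 1, SMC1A and CTCF in WT only, held 157 regions, of which 5.1% had a KO and 24.2% a WT peak in batch 2. Each reading has 1 library per genotype and so no test.

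The other direction was not free of the choice, since the WT CTCF list used to choose comes from batch 1. Choosing SMC1A and KO CTCF in batch 2, without WT CTCF, gave 368 regions. Of these, 286 (77.7%) had a KO SMC1A peak in batch 1 and 57 (15.5%) a WT peak, which is given as a description only. Choosing by the batch 2 SMC1A lists with no condition on CTCF gave 5966 regions, of which 63.9% had a KO and 28.2% a WT peak in batch 1. The KO list of batch 1 is the longer, with 27459 peaks against 19466, and regions of WT only in batch 2 were also more often in the KO than in the WT list of batch 1 (49.2% and 39.4% of 6002).

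Members were modest peaks. SMC1A fold ran from 2.86 through a median of 6.12 to 21.1 in KO replicate 1, and from 3.34 through 5.6 to 15.1 in KO replicate 2. The reads behind them were few, with a median pile-up of 12 (5 to 44) in replicate 1 and 8 (4 to 30) in replicate 2. Those lists call no peak under 5 and 4 reads. CTCF fold at members ran from 2.19 through 8.08 to 37.6 in KO replicate 1 and from 2.17 through 3.68 to 8.39 in KO replicate 2. A −log10 q of at least 5 in both KO SMC1A lists was reached by 365 members (38.6%), and 15 had a fold of at least 10 in both.

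**Figure D2:**
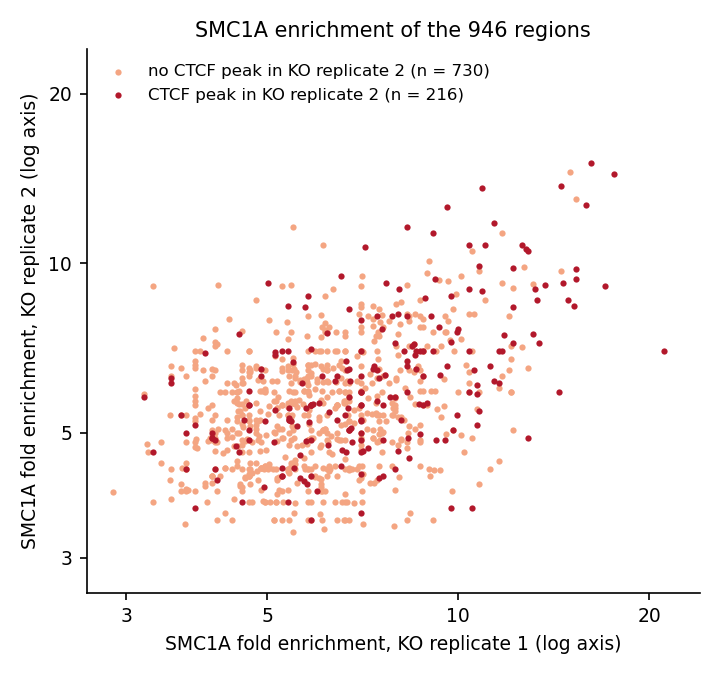
SMC1A fold enrichment of each of the 946 members in KO replicate 1 (horizontal) and KO replicate 2 (vertical), both on log axes; dark points are the 216 with a CTCF peak of KO replicate 2 and light points the 730 without. The dark points reach higher (median folds of 7.12 and 6.01 for those with CTCF in both lists, against 5.86 and 5.4), with wide overlap.

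Ranks within a list, from 0 for its weakest to 100 for its strongest peak, can be set side by side. The median member was at the 43rd percentile of the SMC1A list of KO replicate 1 and at 31.7 in replicate 2. Gains with WT CTCF were close to them, at 39.5 and 29.6, and regions of all 4 lists ranked at 76.5 and 67.9. For CTCF, members were at 63.4 in KO replicate 1 and, for the 216 with a peak, at 30.6 in KO replicate 2, while gains with WT CTCF were at 73 and 52.9. Members and other gains ranked alike in SMC1A and apart in CTCF, most of all in KO replicate 2. The rule split them by the WT CTCF call, so their CTCF ranks are not free of the choice and are a description only.

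**Figure D3:**
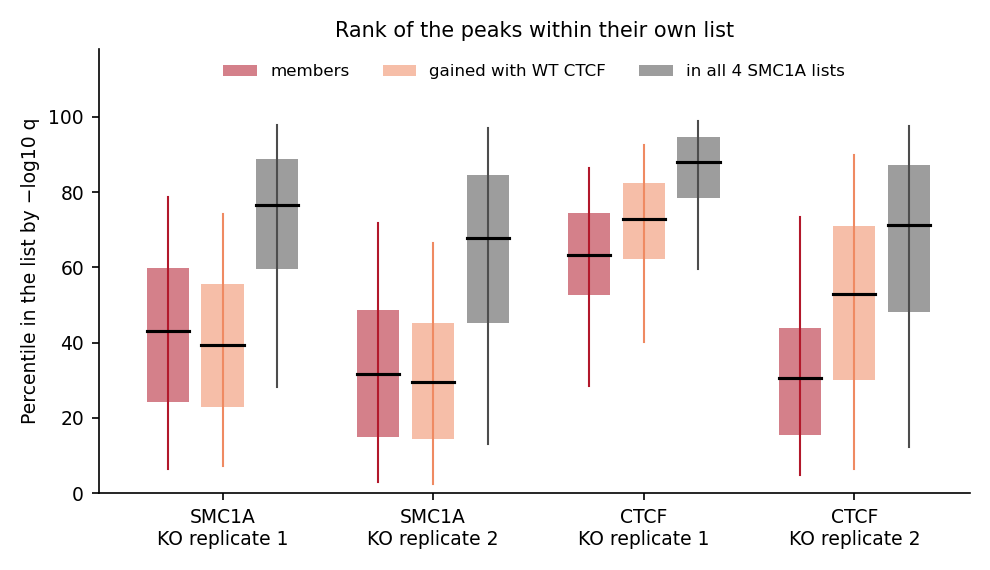
Percentile rank of peaks within each KO list (vertical axis) for members, gains with WT CTCF and regions of all 4 SMC1A lists; black lines are medians, boxes run between the quartiles and thin lines from the 5th to the 95th percentile of the regions. Members sit beside the other gains in SMC1A (43 and 39.5 in replicate 1) and under them in CTCF (63.4 and 73 in replicate 1). The rule split these sets by the WT CTCF call.

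The strongest member lay inside Vmp1, an endoplasmic reticulum protein needed for autophagy (chr11:86586619-86587697, 1079 bp). Its SMC1A fold was 16.2 in KO replicate 1 and 15.1 in KO replicate 2, and its CTCF fold 25.3 and 5.9. No WT list had a peak there, and the nearest WT SMC1A and CTCF peaks were 5186 and 12460 bp away. The second, at chr10:19565601-19566455, was 25942 bp from Ifngr1, the ligand-binding chain of the interferon gamma receptor, with SMC1A folds of 17.6 and 14.4 and CTCF folds of 31.6 and 3.57. The region in Ikzf3, which encodes the lymphoid zinc finger factor Aiolos (chr11:98476598-98478070), had SMC1A folds of 10.9 and 13.6 and CTCF folds of 14.8 and 2.89. All 3 were in both KO lists for both proteins and in no WT list.

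The other 9 of the 12 strongest members were spread over the genome. They lay inside Sh3bp5, Pde10a (a cyclic nucleotide phosphodiesterase), Serinc5 (a membrane protein that restricts retroviral infectivity), Mboat1 (a lysophospholipid acyltransferase) and Glb1 (lysosomal beta-galactosidase), within 100 kb of Ralgps2 and Amph, and at chr17:52278496-52278895 and chr3:52458349-52459179 with no protein-coding gene within 100 kb. Their SMC1A folds ran from 9.61 to 15.9 in KO replicate 1 and from 10.8 to 14.5 in KO replicate 2. The region nearest to Amph, 28412 bp away, stood within the T cell receptor gamma locus (Tcrg, chromosome 13, 19178042 to 19356476), which was looked up after its values were seen. It spans chr13:19181813-19182804, with SMC1A folds of 9.61 and 12.6 and CTCF folds of 9.6 and 5.38, and it was 1 of 2 members in that locus. Of these 12, 9 had a CTCF peak of KO replicate 2, against 22.8% of all members.

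Among members with both KO CTCF peaks, the 8 strongest over all 4 KO lists were in or near Vmp1, Lmo4 (a LIM-only transcription cofactor), Akap6 (an anchor of protein kinase A), Il7r, Rab38, Amph, Il17rd and Vmn2r27. The region inside Il7r, which is known to be silent in DP thymocytes and expressed again after selection, spans chr15:9523553-9524540. Its SMC1A folds were 8.29 and 11.6 and its CTCF folds 16.8 and 6.31. The region inside Il17rd had SMC1A folds of 8.86 and 8.68 and CTCF folds of 30.8 and 6.49. Vmn2r27 belongs to a family of near-identical vomeronasal receptor genes, and unique mapping of reads is not stated, so its region (chr6:124260500-124260961) is uncertain.

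Il7r, Il2ra and Tox had several members each. Within 20 kb of Il7r all 3 regions of both KO SMC1A lists were members. Beside the region already given, they were at chr15:9527871-9528631 (SMC1A folds 4.56 and 6.12, CTCF fold 8.05 in KO replicate 1 only) and at the promoter printed above, chr15:9529678-9530015 (4.69 and 6.42, CTCF 5.93). At Il2ra, 3 of the 10 regions in both KO lists were members and 3 others were in all 4 SMC1A lists. The strongest, at chr2:11662771-11663141, had SMC1A folds of 10.1 and 9.49 and a CTCF fold of 7.71. The promoter region of Il2ra was the weakest, with folds of 4.56, 3.95 and 5.14. At Tox, a nuclear factor needed for CD4 lineage development, 3 of 4 regions were members, among them the widest of all (1750 bp, chr4:6901298-6903047, SMC1A folds 14.4 and 5.92, CTCF folds 14.8 and 3.9).

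Beside these, 2 of 3 regions at Ikzf2, the factor Helios, 2 of 8 at Ikzf3 and 1 of 6 at Ifngr1 were members. No member lay within 20 kb of Satb1 itself, Bcl6, Cd8a or Rag1. Satb1 had 4 regions in both KO lists, all of which were in all 4 SMC1A lists, and 4 lost regions.

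Genes were also read by list, taking all regions of both KO SMC1A lists within 20 kb of a gene; over all protein-coding genes 4.82% of such regions were members, and 850 of 20661 genes (4.11%) had one. The gene lists were chosen with earlier results of these data known, so their shares are a description only. Regulatory T cell genes had members at 4 of 11 genes (Ctla4, the costimulatory receptor gene Icos, Ikzf2 and Il2ra), with 7 of 22 regions (31.8%). Of these 7 regions, 3 were at Il2ra and 2 at Ikzf2. Cytokine, effector and egress genes had them at 6 of 17 (Ifngr1, Il5, Il7r, Klf2, Rad50 and S1pr1), also 7 of 22 regions. The region beside Il5 is also the one counted for Rad50. T-lineage transcription factors had them at 7 of 30 (Ets1, Foxp1, Ikzf1, Ikzf3, Nfatc1, Tox and Tox2), with 15 of 135 regions (11.1%).

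In the region inside Ctla4, SMC1A fold was 8.98 in KO replicate 1 and 4.31 in KO replicate 2, with a CTCF fold of 10.7 in KO replicate 1 only. Klf2, which drives the gene programme of thymic exit, had a member 6007 bp away with SMC1A folds of 7.46 and 5.38 and CTCF 7.12. In Nfatc1, a calcium-regulated factor, the strongest of 3 regions had SMC1A folds of 12.9 and 6.53 and CTCF 13.7. In Foxp1 the strongest had 6.21, 7.54 and 5.79. In these regions CTCF again came from KO replicate 1 alone.

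Other lists had few or none. The 28 listed T cell receptor, coreceptor and signalling genes, such as Cd4, Cd8a, Rag1, Lck and the constant gene Trac, had 0 members in 100 regions within 20 kb, which allows up to 3%. That list does not span the receptor loci, whose variable segments reach much farther: 3 of 18 regions in both KO lists were members within Tcra, 2 of these 3 also within the nested Tcrd, and so were 1 of 12 within Tcrb and 2 of 3 within Tcrg. The loci were looked up after values were seen. Apoptosis genes had 0 members in 41 regions, which allows up to 7.32%. Genes of cohesin and nuclear architecture had 1 in 54 regions (1.85%), inside the topoisomerase gene Top2b (SMC1A folds 10.7 and 6.08, CTCF 19.9 and 3.53). Housekeeping genes had 2 in 34 (5.88%), near Rpl13a and Actb. Markers of cells that a sort could carry over had none: 0 of 12 regions at B cell, 0 of 8 at myeloid, 0 of 10 at erythroid and 0 of 13 at thymic epithelial genes. With so few regions the last 4 lists allow shares of 23.1 to 37.5%.

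Members tended to lie near each other more than the other gains did. A neighbouring member within 50 kb was found for 241 of 946 (25.5%, 22.8 to 28.3%), against 17.1% (15.1 to 19.3%) of the 1212 gains with WT CTCF, the larger set. They formed 77 pairs, 22 groups of 3, 4 of 4 and 1 of 5. The group of 5 was at Nck2, an adaptor of receptor tyrosine kinase and T cell receptor signalling (chr1:43538664-43636092), where 5 of 7 SMC1A regions were members. Their SMC1A folds ran from 5.45 to 9.64 in KO replicate 1 and from 3.89 to 7.89 in KO replicate 2. All had CTCF in KO replicate 1 only.

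The densest group held 4 of 4 SMC1A regions within 15.3 kb on chromosome 9, between 47403 and 62084 bp from Slc9a9, a sodium-proton exchanger (chr9:94607082-94622334). SMC1A folds there were 11.8, 9.27, 8.7 and 6.21 in KO replicate 1 and 7.47, 5.52, 4.85 and 6.18 in KO replicate 2, and 1 of the 4 regions had CTCF in KO replicate 2. Another group of 4 of 9 regions lay between Il10rb and Ifnar1, chains of the interleukin 10 and type I interferon receptors (chr16:91433569-91461562). Its SMC1A folds were low, from 3.25 to 4.99 in replicate 1. A group of 4 within the overlapping gene models Gm16867 and Gm21451 (chr14:69430968-69496803) is uncertain, since the models overlap and unique mapping is not stated.

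The group near Ifngr1 had 4 members in 52.4 kb upstream of the gene (chr10:19530079-19582522), with summits 61689, 28160, 25942 and 9623 bp from its start. SMC1A folds were 6.41, 6.99, 17.6 and 6.31 in KO replicate 1 and 7.54, 4.13, 14.4 and 4.93 in KO replicate 2. CTCF folds were 8.47, 6.77, 31.6 and 7.84 in KO replicate 1, and KO replicate 2 had a CTCF peak at the strongest alone. Further along, 3 members lay at Il20ra. The strongest of them, chr10:19718535-19719142, had SMC1A folds of 13.4 and 7.23 and CTCF folds of 16.5 and 3.43, and the region at the printed promoter had 6.63 and 6.12 with a CTCF fold of 8.5 in KO replicate 1 only. The start of Ifngr1 itself had SMC1A and CTCF in WT as well, so the members stood beside a site already occupied.

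**Figure D4:**
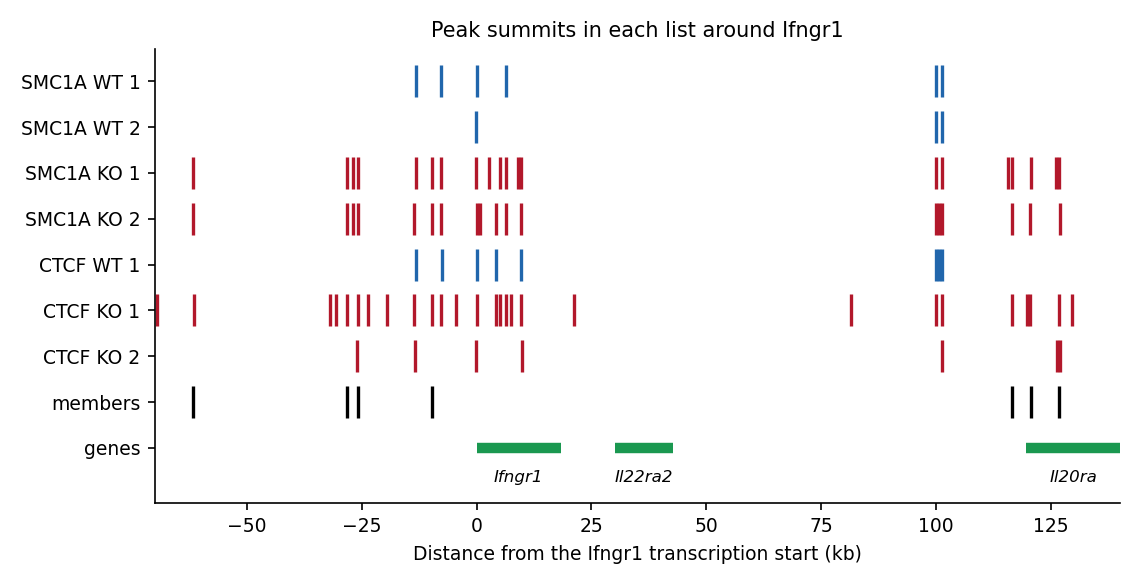
Peaks of the 7 lists around Ifngr1, with distance from the gene start in kb (horizontal) and 1 row per list; each tick is a peak summit, black ticks are members and green bars are genes. Near −25.9 kb all 4 KO lists have a summit (−log10 q of 44.2 and 26.6 for SMC1A) and no WT list has one.

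Position separated the members from regions with standing CTCF more than gene content did. Summits inside a protein-coding gene made up 55.6% (52.4 to 58.7%) of members, 55.9% of gains with WT CTCF and 50.3% of regions in all 4 lists. The RefSeq table gives no exons, so exon and intron were not told apart. Within 1 kb of a gene start in the window table lay 94 of 946 members (9.94%), against 18% of gains with WT CTCF and 41.9% of regions in all 4 lists. The table lacks windows for part of the genes, all of chromosome 18 among them, so these shares are lower limits. Counting either end of each gene without a window as a start, a bound added after the values were seen, gave 11.5%, 23.6% and 48.6%, with median distances of 15, 7.6 and 1.22 kb. By chromosome, members made up 3.24% (chromosome 8) to 7.7% (chromosome 10) of the regions in both KO lists.

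SMC1A and CTCF summits were close in members, though less so than at standing CTCF. The median distance from the SMC1A summit to the nearest KO CTCF summit was 62 bp (quartiles 25 and 124), against 45 bp at gains with WT CTCF and 29 bp at regions of all 4 lists. A distance of at most 100 bp was found in 66.7%, 76.1% and 86%. The nearest summit of either KO CTCF list was taken, which favours regions with a peak in both. KO replicate 2 had a CTCF peak at 216 members, 690 gains with WT CTCF and 10099 regions of all 4 lists. With CTCF of KO replicate 1 alone the members' median was 68 bp. Overlap with a KO CTCF peak was part of the rule, so distances were bounded by the width of the regions, whose medians were 453, 411 and 692 bp.

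**Figure D5:**
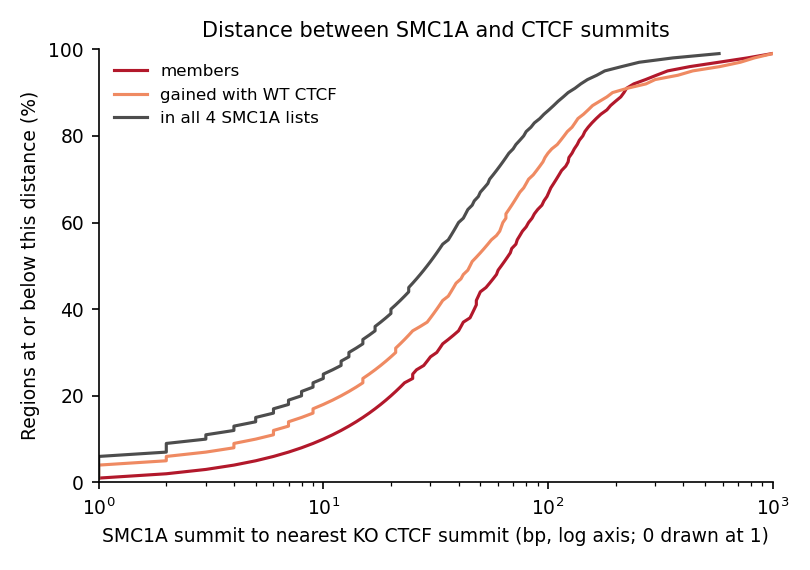
Cumulative share of regions (percent, vertical) by distance in bp between the SMC1A summit and the nearest CTCF summit of either KO list (horizontal, log axis). Up to about 200 bp the curve of the members (median 62 bp) runs under those of gains with WT CTCF (45 bp) and regions of all 4 SMC1A lists (29 bp).

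Several members were close to the edge of the rule. A WT CTCF peak lay within 1 kb without overlap in 117 (12.4%) and a WT SMC1A peak in 97 (10.3%), while 508 (53.7%) had no WT CTCF and 543 (57.4%) no WT SMC1A peak within 10 kb. In 54 members (5.71%) the −log10 q was under 2 in a KO SMC1A list. Just outside the rule, 1205 gains had both WT and KO CTCF, of which 11 overlapped the WT peak by at most 50 bp and 99 (8.22%) had a WT CTCF −log10 q under 3.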

How the data were processed

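Per the submitters' processing notes, tools included Trimmomatic 1.24, Bowtie2, SAMtools and MACS2, with mm10 as the build; the labels give no calling settings, controls or duplicate handling. Each deposited list holds peaks of 1 library, with the authors' fold enrichment (a linear ratio), −log10 p and −log10 q; other columns were not used as values. Lists of the whole series were assigned to samples by the names of their peaks.

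Regions were merged with Python 3.11.15, numpy 2.4.6 and pandas 2.3.3. Each peak's pile-up and background were recovered from its fold, read as pile-up plus 1 over background plus 1, and −log10 p, as deposited, assuming Poisson counts, which gave a whole pile-up for 99.06 to 99.92% of peaks within 0.001 of the −log10 p. Total reads per library are not known from peak lists. The lowest 1% of backgrounds (0.384 to 0.633 reads for SMC1A, 1.02 to 3.28 for CTCF) stands in for depth. Intervals are 95% and cover counting error only. Both steps were run on simulated data and recovered 303 of 303 members and 4834 of 4834 pile-ups. Those data were made with the same rule and Poisson formula, so this checks the code alone. CTCF backgrounds at members reached 12.2 reads, above those simulated.

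Genes and promoters come from RefSeq GRCm38.p6. The promoter windows are not complete and hold none on chromosome 18. A region takes the protein-coding gene holding its summit, or the nearest within 100 kb. Named members are the 12 with the highest lower −log10 q in the KO SMC1A lists, the 8 strongest with both KO CTCF peaks, the 5 largest groups, the widest, and up to 4 genes per list. The members and the 11 gene lists were chosen with earlier results of these data known, and the ETS, RUNX and AP-1 letters after promoter sequences were seen. WT CTCF replicate 2, H3K27ac, IgG and input libraries were not analysed here.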

Additional observations from a re-analysis of the deposited data

How the results depend on the processing

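The number of members ranged from 216 to 3629 when 1 list was left out: 1712 without SMC1A of KO replicate 1, 3629 without SMC1A of KO replicate 2 and 216 without CTCF of KO replicate 1. It was 4066 and 1969 with the SMC1A lists of batch 1 or batch 2 alone, 618 with a −log10 q of 5 or more in every list (overlapping 360, or 38.1%, of the 946 members) and 214 with both KO CTCF lists required. With lists cut to equal length it was 680 (overlapping 474, or 50.1%). The share with CTCF of KO replicate 2, 22.8%, was 40.7% at equal length, 19.9% at −log10 q of 5 or more, 15.2% and 18.7% in batch 1 and batch 2 alone, and 14.3 to 23.7% with 1 list left out. The median summit distance, 62 bp, was 51 bp at equal length, 53 bp at −log10 q of 5 or more, 55 bp with CTCF summits within 200 bp, 41.5 bp with both KO CTCF lists, 80 and 70 bp in batch 1 and batch 2, and 61.5 to 100 bp with 1 list left out. The causes were not tested. The share inside genes stayed within its interval in all 15 settings. The only WT CTCF list could not be left out. No paired analysis was possible because these results come from no test; the counts within each batch stand above.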

Other observations

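Receptor genes for cytokines and chemokines, a group chosen after the values of the members were seen, had a member within 20 kb at 16 of 87 genes (18.4%), against 4.11% of all protein-coding genes. The 16 were Ccr1, Ifngr1, Ifngr2, Il10ra, Il10rb, Il12rb2, Il17rb, Il17rc, Il17rd, Il17re, Il20ra, Il2ra, Il7r, Tnfrsf19, Tnfrsf1b and Tnfrsf8. Of the regions in both KO SMC1A lists near these receptor genes, 22 of 169 (13%) were members, against 4.82% near all protein-coding genes. Gains at regions with WT CTCF were found near 15 of the 87 (17.2%), against 8.14% of all genes. Since the group was picked for its members, these counts carry no test.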
